A study of Homo sapiens with 16 samples.

Results

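The promoters of 4 globin genes and of GATA1, the master transcription factor of red cell development, were tested as reporters in K562, a human erythroleukaemia cell line with the wild-type genotype. The reporter inserts were those named for HBE1-promoter, HBG2-promoter, HBZ, HBQ and GATA1 in the 2 deposited tables of short inserts, both as the control sequence (Ctrl) and with 1 named motif mutated. They came to 48 of the 1996 barcoded oligos, that is 12 of 499 inserts with 4 barcodes each: 5 Ctrl inserts and 7 mutants. HBE1 had a CDX4_Homeobox and an NFY_CCAAT mutant, HBQ a CTCF_Zf and an NRF1_NRF mutant, and HBZ a Gata1_Zf, an NFY_CCAAT and a TATA-Box_TBP mutant. HBG2 and GATA1 had a Ctrl only. Each motif mutant was a single design, so its 4 barcodes carried the same insert. The insert sequences and the bases changed in each mutant are not given in the sources used here. Loss of the named motif can therefore not be told apart from another effect of the changed bases.

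TSS-MPRA, the assay, pools many reporter inserts and sequences the 5 prime ends of their capped RNA. A read thus names its insert and the position of its first transcribed base. The library was carried by an episomal plasmid (EpiShort) or by an integrated lentiviral vector (LentiShort). Both had 2 RNA samples and 2 DNA sequencing samples, 8 of the 16 samples of the series. RNA reads numbered 11140433 to 21571370 and DNA reads 1698930 to 15286382 per sample. The lowest was the DNA of EpiShort replicate 2, the other DNA samples holding 8614823 or more. No label says that replicates were separate cultures, and the reads are PCR products without molecular identifiers. The p-values therefore measure only the spread between these barcodes or samples, which may be technical.

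Globin genes lie in a beta-like cluster and an alpha-like cluster and are switched on in order during development. K562 cells are known to express embryonic and fetal globins. HBE1 encodes the embryonic beta-like chain, HBG2 a fetal gamma chain, HBZ the embryonic alpha-like zeta chain and HBQ1, listed here as HBQ, the theta chain. A TATA box binds TBP, which sets the place where RNA polymerase II starts a short distance downstream. A CCAAT box binds the trimeric factor NF-Y, and GATA motifs bind GATA1 in erythroid cells. NRF1 is an activator of many CpG-rich promoters, CTCF a zinc finger architectural factor and CDX4 a homeobox factor. In RefSeq (GRCh38.p14) the HBG2 gene spans chr11:5253188-5254781, HBE1 chr11:5268345-5269945, HBZ chr16:152644-154503 and HBQ1 chr16:180459-181179.

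Of the 5 genes, 1 was matched in the RefSeq promoter table used here, GATA1. Its sequence is shown because it lets the strongest starts be read against the genome. The starts of the GATA1 Ctrl were slid along this promoter over 149 shifts. In the best placement 77.1% of the reads began at a purine that follows a pyrimidine, against 62.2% in the next. In it, position 128 of the insert is the RefSeq transcript start of GATA1, at base 48786590 of chromosome X. Positions 1 to 142 of the insert are then chrX:48786463-48786604 on the plus strand, upstream sequence up to position 127 and the first bases of exon 1 from there on. Capitals mark positions 92, 110, 128 and 142, the 4 strongest starts in the episomal vector. Those at 110, 128 and 142 are purines that follow a pyrimidine, but position 92 is a C and breaks the rule used for the placement.
GATA1: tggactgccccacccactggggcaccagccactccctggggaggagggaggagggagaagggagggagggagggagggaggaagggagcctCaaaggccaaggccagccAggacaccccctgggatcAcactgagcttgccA
On both strands, the 300 RefSeq bases around the GATA1 start held CCACCC at 3 places, only 1 of which lies within the tested insert as placed above. The motif was found in 34.3% of all 35116 RefSeq promoters of this length. The same bases held 0 matches to AGATAA (10.3% of promoters), TGATAA (7.53%), CCAAT (34.6%) and TATAAA (11.5%). A match is a description of letters, not of a bound site.

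RNA per DNA is given as log2 of an insert's share of all RNA reads over its share of all DNA reads in the same replicate, with 1 read added to each count. A value of 0 is thus the library average in that vector. In the episomal vector the GATA1 Ctrl stood at -2.01 in replicate 1 and -2.35 in replicate 2. The HBE1 Ctrl gave -2.66 and -2.93. The HBZ Ctrl gave -3.35 and -3.45, and the HBG2 Ctrl -3.42 and -3.53. All 4 promoters were therefore below the library average, and the replicates of GATA1 and HBE1 did not overlap with those of any other of these. Averaged over both replicates and then over 4 barcodes, the levels were -2.21 ± 0.15 for GATA1, -2.79 ± 0.26 for HBE1, -3.49 ± 0.31 for HBZ and -3.56 ± 0.42 for HBG2 (SD over barcodes). They ranked 14th, 15th, 19th and 20th of 26 Ctrl loci from the highest, and the median of those loci was -2.01. The HBQ Ctrl gave -1.44 and -2.0, but on only 132 and 24 DNA reads, nearly all from 1 barcode. It was left out of every barcode test in that vector, except in an alternative with no minimum of DNA reads.

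The order of the promoters in the episomal vector was tested by limma over all 325 pairs of Ctrl loci, of which 90.5% differed at a Benjamini-Hochberg adjusted p under 0.05. Of the 6 pairs among GATA1, HBE1, HBZ and HBG2, 5 differed. GATA1 exceeded HBE1 by 0.59 ± 0.20 (log2 ± SE, adjusted p = 0.0130, limma), and HBE1 exceeded HBZ by 0.70 ± 0.22 (adjusted p = 0.00813, limma). HBG2 and HBZ, neighbours at the bottom of the order, were not told apart. Their difference was -0.07 ± 0.25, with a 95% interval from -0.60 to 0.46 (adjusted p = 0.794, limma).

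In the lentiviral vector the embryonic promoter HBE1 led. Its Ctrl stood at 1.21 in replicate 1 and 1.07 in replicate 2, above the library average. The HBZ Ctrl gave -0.10 and 0.02, close to that average. The GATA1 Ctrl gave -0.64 and -0.28, the HBG2 Ctrl -0.96 and -1.36, and the HBQ Ctrl -1.56 and -1.93. Replicates of neighbouring promoters did not overlap. Over barcodes the means were 1.12 ± 0.19 for HBE1, -0.02 ± 0.31 for HBZ, -0.42 ± 0.24 for GATA1 and -1.26 ± 0.47 for HBG2 (SD, n = 4), and -1.68 ± 0.39 for HBQ (SD, n = 3). HBE1 ranked 6th, HBZ 13th, GATA1 16th, HBG2 17th and HBQ 19th of 27 loci, around a median of -0.02.

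Of the 10 pairs among these 5 promoters, 8 differed in the lentiviral vector, where 85.5% of all 351 pairs of loci did. HBE1 exceeded HBZ by 1.14 ± 0.21 (adjusted p = 0.000357, limma), the smallest of its 4 leads. GATA1 exceeded HBG2 by 0.84 ± 0.26 (adjusted p = 0.00906, limma), but without replicate 2 the adjusted p was 0.142. GATA1 and HBZ gave a difference of -0.40 ± 0.22, with a 95% interval from -0.88 to 0.09 (adjusted p = 0.112, limma). HBG2 and HBQ gave 0.41 ± 0.30, with an interval from -0.26 to 1.09 (adjusted p = 0.222, limma). With the 2 libraries instead of the barcodes as repeats, in a fit with the replicate as a block, both of these pairs differed (adjusted p = 0.0362 and 0.00475, limma). That fit called 321 of 351 pairs, and limma shares its spread over all of them.

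The globin and GATA1 inserts mostly gave more RNA per DNA in the lentiviral than in the episomal vector, relative to all inserts. In the edgeR quasi-likelihood interaction test over 499 inserts, 10 of the 12 differed between the vectors, against 83.4% of all inserts. Of these 10, 9 were higher in the lentiviral vector, where 42.9% of all inserts were called higher. These 9 came from HBE1, HBZ, HBG2 and GATA1 only. The HBE1 and HBZ mutants are variants of the promoters of their Ctrl inserts, so the 9 are not separate cases. The lentiviral minus episomal difference (log2 ± SE, 2 replicates of each molecule per vector) was 3.26 ± 0.14 for the HBE1 Ctrl, 2.69 ± 0.13 for HBZ, 1.64 ± 0.14 for HBG2 and 1.04 ± 0.17 for GATA1. Their adjusted p ran from 3.26e-12 to 2.53e-05 (edgeR). The HBQ inserts did not follow. The NRF1_NRF mutant was lower in the lentiviral vector by -0.71 ± 0.18 (adjusted p = 0.00157, edgeR). The HBQ Ctrl gave -0.87 ± 0.40 (adjusted p = 0.0530, edgeR) and the CTCF_Zf mutant -0.08 ± 0.19 (adjusted p = 0.716, edgeR). Scaling by library totals alone moved the median of all inserts from 0.07 to 0.73. Under it the HBQ NRF1_NRF mutant gave -0.04 (adjusted p = 0.847) and the CTCF_Zf mutant turned to 0.59, while the 9 higher inserts stayed past the threshold and higher. That scaling called 303 of all 499 inserts higher, against 214 in the main fit, so it is a weak check of the 9. The 2 vectors were prepared as different libraries, and a difference of preparation cannot be told apart from one of vector.

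All 5 Ctrl inserts had their strongest start at position 128 in both vectors, and the promoters differed in how narrowly the starts gathered there. In the HBE1 Ctrl, position 128 took 57.5% and 56.7% of the starts in the 2 episomal replicates and 58.7% and 61.8% in the lentiviral ones. Position 130 took most of the remainder, 27.3% and 31.1% by vector. In all, 84.8% to 94.0% of HBE1 starts lay within 2 bp of position 128, the narrowest of the 5. In the HBZ Ctrl, position 128 took 61.9% and 58.9% in the episomal and 63.4% and 63.5% in the lentiviral replicates. A second HBZ start at position 131 took 10.9% of episomal and 20.5% of lentiviral starts.

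HBG2 and GATA1 started over a wider stretch. The HBG2 Ctrl had 49.4% and 50.4% of its episomal and 54.0% and 46.4% of its lentiviral starts at position 128, with a neighbour at position 126 (15.5% and 13.4% by vector). A further 19.7% to 26.2% of HBG2 starts lay at positions 90 to 102, led by position 93. The GATA1 Ctrl had 43.5% and 44.3% of its episomal and 45.4% and 45.5% of its lentiviral starts at position 128. Of its other capitalised bases, position 142 took 10.2% of episomal and 11.3% of lentiviral starts, and position 110 took 7.90% and 11.1%. Position 92 took 4.27% and 3.25%. In the HBQ Ctrl, position 128 took 61.5% of 509 and 63.6% of 423 reads in the lentiviral replicates. In the episomal replicates it took 30.9% of 68 reads (95% Wilson interval 21.2% to 42.6%) and 44.9% of 69 reads (33.8% to 56.6%), intervals that cover counting error only.

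Between the vectors the start profiles of the Ctrl inserts moved by under 5 bp. The earth mover distance, the mean number of bp by which reads would have to be moved to turn one profile into another, was 0.93 bp for GATA1, 1.64 bp for HBE1, 2.53 bp for HBZ, 3.01 bp for HBQ and 4.87 bp for HBG2. Between replicates of 1 vector it ran from 0.29 bp for HBZ in the lentiviral vector to 3.18 bp for HBQ in the episomal one. The vector distance exceeded both replicate distances for HBE1 and HBG2 but not for GATA1, HBQ or HBZ.

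Mutation of the TATA box took RNA from the HBZ promoter in both vectors and moved its starts. In the lentiviral replicates the mutant stood at -1.84 and -1.93, against -0.10 and 0.02 for the Ctrl. In the episomal replicates it stood at -4.36 and -4.23, against -3.35 and -3.45. In neither vector did mutant and Ctrl replicates overlap. The mutant was lower by 3.65-fold in the lentiviral vector (-1.87 ± 0.18, adjusted p = 1.95e-05, limma on 4 barcodes of each insert). Episomally it was lower by 1.71-fold (-0.77 ± 0.26, adjusted p = 0.0279, limma). The episomal call was lost without barcode 2, 3 or 4 (adjusted p = 0.109, 0.0570 and 0.0964) and without replicate 1 (0.121), and with RNA reads not divided by DNA (0.526).

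The starts of the HBZ TATA-Box_TBP mutant left position 128 almost wholly in the lentiviral vector. Within 2 bp of that position lay 66.7% and 68.4% of the starts of the Ctrl in replicates 1 and 2, but 1.11% and 1.95% of those of the mutant. Over the 4 barcodes of the mutant the share ran from 0.36% to 2.54%. Of the episomal mutant starts, 26.4% and 26.9% stayed in the window, against 65.5% and 61.2% in the Ctrl, and the share ran from 10.9% to 41.1% over barcodes. The odds of a start in the window fell by 7.59 ± 0.64 on the log2 scale in the lentiviral vector (adjusted p = 1.11e-05, limma). They fell by 2.44 ± 0.48 in the episomal vector (adjusted p = 0.00299, limma). The loss was larger in the lentiviral vector by -5.14 ± 0.91 (log2 odds, adjusted p = 0.00606, limma).

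The starts of the TATA-Box_TBP mutant gathered upstream and downstream instead. In the lentiviral vector position 96, which is 32 bp upstream of the lost start, took 26.9% and 26.2% in the 2 replicates. The lentiviral Ctrl had 0 of 41113 starts there, which allows a share of up to 0.0073% (counting error only). Position 137, 9 bp downstream, took 17.3% and 17.7%, against 1.97% in the Ctrl. Positions 90 to 102 together held 52.3% and 50.2% of the mutant starts, against 4.13% and 4.57% in the Ctrl. In the episomal vector position 128 stayed the strongest start and position 137 came next, with 18.6% and 15.1%. Position 96 took 10.6% and 5.95%, and position 136 took 7.48% and 6.58%, more than position 96 in replicate 2.

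Counted per DNA, HBZ starts within 2 bp of position 128 fell by 7.80 ± 0.64 on the log2 scale in the lentiviral TATA-Box_TBP mutant (adjusted p = 9.82e-06, limma). Starts outside the window gave -0.26 ± 0.18 (adjusted p = 0.264, limma). This second value turned with the window, since the second Ctrl start at position 131 lies outside 2 bp but inside 5 bp. With a window of 5 bp, a setting added after the data were seen, starts inside fell by 5.58 ± 0.25 and starts outside rose by 1.31 ± 0.18 (adjusted p = 1.08e-07 and 0.000185, limma). With that window starts inside differed in 74.5% of 51 pairs and starts outside rose in 35.3%.

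Mutation of the CCAAT box lowered RNA per DNA in both promoters that carried such a mutant, HBE1 and HBZ. The HBE1 NFY_CCAAT mutant stood at -1.77 and -1.51 in the lentiviral replicates, against 1.21 and 1.07 in the Ctrl. In the episomal replicates it stood at -3.50 and -3.65, against -2.66 and -2.93. Mutant and Ctrl did not overlap in either vector. The mutant was lower by 7.08-fold in the lentiviral vector (-2.82 ± 0.18, adjusted p = 1.44e-06, limma), the largest loss among the 7 mutants. Episomally it was lower by 1.95-fold (-0.96 ± 0.26, adjusted p = 0.00927, limma). Without barcode 4 the episomal adjusted p was 0.0627, and with RNA reads not divided by DNA it was 0.749.

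The HBE1 NFY_CCAAT mutant kept position 128 as its strongest start. Position 128 took 55.2% and 52.7% of its episomal and 55.7% and 58.4% of its lentiviral starts. The odds of a start within 2 bp of it gave -0.09 ± 0.20 in the episomal vector (adjusted p = 0.779, limma). They gave -0.79 ± 0.36 in the lentiviral one, with a 95% interval from -1.61 to 0.04 (adjusted p = 0.0953, limma). The lentiviral value changed with the replicate left out. It was -1.31 without replicate 1 (adjusted p = 0.00920, limma) and 0.60 without replicate 2 (adjusted p = 0.741, limma). Pooled over barcodes, 87.8% and 86.0% of the mutant starts lay in the window in lentiviral replicates 1 and 2. The Ctrl had 91.1% and 94.0%, more in each replicate. The 0.60 is a difference of means over barcodes and was not seen in the pooled starts of replicate 1. Per DNA, starts inside the window fell by 2.89 ± 0.22 and starts outside it by 2.10 ± 0.26 in the lentiviral vector (adjusted p = 6.40e-06 and 9.83e-05, limma).

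The HBZ NFY_CCAAT mutant lost RNA in both vectors. It stood at -1.30 and -1.55 in the lentiviral replicates, against -0.10 and 0.02 in the Ctrl. The episomal replicates gave -4.49 and -4.62, against -3.35 and -3.45. No mutant replicate reached a Ctrl replicate. The loss was 2.59-fold in the lentiviral (-1.37 ± 0.20, adjusted p = 0.000339, limma) and 2.28-fold in the episomal vector (-1.19 ± 0.35, adjusted p = 0.0147, limma). The episomal adjusted p was 0.0855 without barcode 1 and 0.0859 without barcode 2.

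The starts of the HBZ NFY_CCAAT mutant spread upstream in the lentiviral vector. Within 2 bp of position 128 lay 50.8% and 45.3% of them, against 66.7% and 68.4% in the Ctrl. The log2 odds fell by 1.17 ± 0.17 (adjusted p = 0.000365, limma). Position 97 took 10.1% and 9.85%, against 0.92% in the Ctrl. Position 62 took 6.10% and 8.56%, against 0.0754%, and position 99 took 8.95% and 9.02%, against 2.79%. Of the episomal starts, 60.4% and 48.0% lay in the window, against 65.5% and 61.2%, a fall in log2 odds of -0.83 ± 0.32 that did not pass (adjusted p = 0.0660, limma) but did with a window of 5 bp (-1.16, adjusted p = 0.0249). Per DNA, lentiviral starts outside the window gave -0.69 ± 0.20 with 2 bp and 0.60 ± 0.20 with 5 bp, called in both but with opposite signs (adjusted p = 0.0152 and 0.0281, limma).

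Mutation of the GATA motif lowered the lentiviral HBZ promoter, with no detectable change in the share of starts near position 128. The Gata1_Zf mutant stood at -1.13 and -1.14 in the lentiviral replicates, against -0.10 and 0.02 in the Ctrl, without overlap. It was lower by 2.25-fold (-1.17 ± 0.21, adjusted p = 0.000944, limma). In the episomal replicates it stood at -4.08 and -3.56, against -3.35 and -3.45. The episomal difference of -0.33 ± 0.21, with a 95% interval from -0.80 to 0.13, did not pass (adjusted p = 0.224, limma). It was 0.01 without replicate 1 and -0.68 without replicate 2, where it passed (adjusted p = 0.0323). It also passed with the replicate as a block and the libraries as repeats (-0.42, adjusted p = 1.62e-05, limma), although the difference was -0.73 in replicate 1 and -0.11 in replicate 2. That fit called 41 of 48 mutants and shares its spread over all pairs. Its p-value therefore does not measure the spread between these 2 differences. Position 128 took 62.8% and 66.2% of the lentiviral starts of the mutant, against 63.4% and 63.5% in the Ctrl. The log2 odds in the window differed by 0.00 ± 0.17, with a 95% interval from -0.39 to 0.39 (adjusted p = 0.984, limma). The mean start lay further downstream in both lentiviral replicates, at 127.28 and 127.05 against 126.31 and 126.10 in the Ctrl, a shift that was not tested.

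The HBE1 CDX4_Homeobox mutant changed its starts in the lentiviral vector, while its lower output did not pass the test over barcodes. It stood at 0.85 and 0.67 in the lentiviral replicates, against 1.21 and 1.07 in the Ctrl, and at -3.02 and -3.11 in the episomal ones, against -2.66 and -2.93. Its replicates lay below those of the Ctrl in both vectors. Over barcodes the difference was -0.44 ± 0.18 in the lentiviral (adjusted p = 0.0626, limma) and -0.33 ± 0.22 in the episomal vector (adjusted p = 0.235, limma), neither of which passed. With the replicate as a block and the libraries as repeats both passed (adjusted p = 0.0191 and 0.00367, limma). Those fits called 39 of 51 lentiviral and 41 of 48 episomal mutants, with the spread shared over all pairs. Without barcode 3 the lentiviral adjusted p was 0.0408.

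A start at position 96 appeared in the HBE1 CDX4_Homeobox mutant, 32 bp upstream of position 128. It took 8.45% and 7.71% of the lentiviral and 4.97% and 4.78% of the episomal starts, against 0.12% and 0.0492% in the Ctrl. The log2 odds of a start within 2 bp of position 128 fell by 1.40 ± 0.23 in the lentiviral vector (adjusted p = 0.000732, limma). In the episomal vector they gave -0.15 ± 0.22 (adjusted p = 0.673, limma), and the difference between the vectors was -1.25 ± 0.22 (adjusted p = 0.00606, limma). Counting position 128 alone, the lentiviral odds did not pass (-0.14, adjusted p = 0.778). Per DNA, lentiviral starts outside the window rose by 0.79 ± 0.20 (adjusted p = 0.00622, limma) while those inside fell by 0.61 ± 0.21 (adjusted p = 0.0265, limma).

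Both HBQ mutants gave less RNA per DNA than the HBQ Ctrl in the lentiviral vector. The NRF1_NRF mutant stood at -3.71 and -3.56 and the CTCF_Zf mutant at -3.26 and -3.14, against -1.56 and -1.93 in the Ctrl. The NRF1_NRF mutant was lower by 3.84-fold (-1.94 ± 0.36, adjusted p = 0.00174, limma) and the CTCF_Zf mutant by 2.96-fold (-1.56 ± 0.24, adjusted p = 0.000723, limma). The Ctrl side rests on 3 barcodes, since the other barcode had 9 and 31 DNA reads. The losses were seen only after division by DNA: the Ctrl had 509 and 423 RNA reads on 1161 and 1378 DNA reads. The NRF1_NRF mutant had 767 and 842 RNA reads on 7767 and 8486 DNA reads, and the CTCF_Zf mutant 1047 and 1108 on 7770 and 8327. In RNA alone the differences turned to 0.29 and 0.88 (adjusted p = 0.672 and 0.150, limma).

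The HBQ mutants were left out of the main test over barcodes in the episomal vector, for want of Ctrl barcodes with 20 DNA reads. Only an alternative with no minimum of DNA reads tested them against the Ctrl there. It called 4 of 7 globin mutants, against 27 of 51 mutants in all. That fit used HBQ Ctrl barcodes with as few as 0 DNA reads, so nothing on HBQ is drawn from it. The CTCF_Zf mutant stood at -3.71 and -3.90 and the NRF1_NRF mutant at -3.63 and -3.56. These values lay below the -1.44 and -2.0 of the Ctrl, which came from 132 and 24 DNA reads. Mutant minus Ctrl was -2.27 and -1.90 for CTCF_Zf and -2.19 and -1.56 for NRF1_NRF in the 2 replicates.

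The HBQ NRF1_NRF mutant gained a start at position 89, 39 bp upstream of position 128. In the lentiviral replicates position 89 took 18.1% and 28.9%, where the Ctrl had 0 of 932 starts, which allows a share of up to 0.322% (counting error only). Position 128 still took 24.0% and 22.6% there, more than position 89 in replicate 1 and less in replicate 2, against 61.5% and 63.6% in the Ctrl. In the episomal replicates it took 46.8% and 48.7%, and position 128 kept 3.30% and 4.17%. Within 2 bp of position 128 lay 44.1% and 34.3% of the lentiviral starts of the mutant, against 68.4% and 73.5% in the Ctrl. The log2 odds fell by 2.25 ± 0.40 (adjusted p = 0.00161, limma). Per DNA, starts inside the window fell by 2.94 ± 0.47 (adjusted p = 0.00129, limma), and those outside gave -0.70 ± 0.40 (adjusted p = 0.183, limma).

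The HBQ CTCF_Zf mutant kept position 128 as its strongest start, with 47.2% and 47.7% of lentiviral and 21.2% and 19.2% of episomal starts. In the lentiviral vector 54.9% and 56.0% lay in the window, and the log2 odds fell by 0.97 ± 0.35 (adjusted p = 0.0465, limma). That call was lost without replicate 1 (adjusted p = 0.164), with position 128 alone (0.139) and with at least 200 reads per barcode (0.0727). Position 111, 17 bp upstream, took 15.3% and 13.6% of the episomal starts, and 5.73% and 11.7% of the lentiviral ones, against 6.76% in the lentiviral Ctrl.

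Over all 7 mutants, RNA per DNA fell in 6 in the lentiviral vector, where 60.8% of all 51 mutants changed and 41.2% fell. In the episomal vector it fell in 3 of the 5 that were tested, where 52.1% of 48 changed and 43.8% fell. The episomal count is close to the background, and without barcode 2 or without barcode 4 it was 1 of 5, where 21 and 20 of 48 changed. With the libraries as repeats and the replicate as a block it was 5 of 5. That fit called 41 of all 48 mutants, 33 of them lower. The share of starts within 2 bp of position 128 fell in 5 of 7 mutants in the lentiviral vector, against 55.1% of 49 (57.1% changed), and in 1 of 5 in the episomal vector, against 41.7% of 48, where every change was a fall. The window was placed at the strongest start of each Ctrl in these same reads, so a fall inside it was favoured in advance. Per DNA, starts inside that window fell in 7 of 7 in the lentiviral vector, where 64.7% of pairs fell (72.5% changed), and starts outside it changed in 5 of 7, against 56.9%. Episomal starts inside the window fell in 3 of 5, where 58.3% of pairs fell (64.6% changed). With a window of 5 bp those of HBZ Gata1_Zf passed as well (-0.62, adjusted p = 0.0417, limma). Episomal starts outside the 2 bp window fell in 1 of 5, the HBE1 NFY_CCAAT mutant (-0.92 ± 0.28, adjusted p = 0.0263, limma), against 33.3%. With a window of 5 bp this mutant gave -0.83 (adjusted p = 0.0573).

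The loss of RNA per DNA differed between the vectors in 3 of 5 mutants, against 43.8% of 48, all 3 with the larger loss in the lentiviral vector, a direction called in 14.6% of all. The difference of the losses was -1.86 ± 0.24 for HBE1 NFY_CCAAT (adjusted p = 0.000225, limma), -1.10 ± 0.25 for HBZ TATA-Box_TBP (adjusted p = 0.00737, limma) and -0.84 ± 0.21 for HBZ Gata1_Zf (adjusted p = 0.0103, limma). The last was not called without replicate 2 (adjusted p = 0.0804), without barcode 2 (0.0531) or with the replicate block (0.0585). For HBZ NFY_CCAAT the difference was -0.18 ± 0.29 and for HBE1 CDX4_Homeobox -0.11 ± 0.17 (adjusted p = 0.664 for both, limma). HBZ NFY_CCAAT took the opposite sign, 0.08, without replicate 2. For the share of starts, the vectors differed in 2 of 5, the HBZ TATA-Box_TBP and HBE1 CDX4_Homeobox mutants above, against 19.1% of 47.

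Whole start profiles order the mutants by how far their starts moved. In the lentiviral vector the earth mover distance to the Ctrl was 23.5 bp for HBZ TATA-Box_TBP, 14.6 bp for HBQ NRF1_NRF and 12.3 bp for HBZ NFY_CCAAT. The distances between the replicates of those mutants were 1.39, 4.37 and 2.89 bp. It was 2.97 bp for HBE1 CDX4_Homeobox, 2.35 bp for HBE1 NFY_CCAAT and 1.81 bp for HBQ CTCF_Zf, with replicate distances of 0.71, 0.65 and 1.64 bp. In the episomal vector the HBQ NRF1_NRF mutant was 28.2 bp from the few Ctrl reads, HBZ TATA-Box_TBP 9.47 bp, HBQ CTCF_Zf 7.29 bp and HBZ NFY_CCAAT 5.59 bp from their Ctrl. The HBZ Gata1_Zf mutant lay 1.03 bp from its Ctrl in the lentiviral vector, the least of the 7 but above the distances between replicates, 0.39 bp for the mutant and 0.29 bp for the Ctrl. Its episomal distance of 1.28 bp was below the 3.33 bp between the replicates of the mutant. These distances are descriptions, with no test.

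The same motif names were mutated at other loci of the library, where the effects on RNA per DNA were mixed. They included loci named for HBE1 (HBE1-HS1neg, HBE1-HS2neg and HBE1-HS5neg) and for NPRL3. HBE1-HS1neg carried the same 2 motif mutants as the HBE1 promoter. In the lentiviral vector NFY_CCAAT gave -3.13 and CDX4_Homeobox -0.78 there, where the HBE1 promoter gave -2.82 and -0.44. In the episomal vector they gave -0.66 and -0.34, where it gave -0.96 and -0.33. The NFY_CCAAT loss differed between the vectors by -2.46 there and by -1.86 at the HBE1 promoter. NFY_CCAAT mutants fell at 3 of 4 other loci in the lentiviral vector (-3.13 to 0.18) and at 2 of 4 in the episomal vector (-1.71 to -0.09). Gata1_Zf mutants fell at 2 of 4 other loci in the lentiviral vector (-1.77 to -0.37, where HBZ gave -1.17) and at 3 of 4 in the episomal vector (-2.11 to 0.08, where HBZ gave -0.33). TATA-Box_TBP mutants at 2 other loci gave -0.06 and 0.63 in the lentiviral vector, the second called higher, where HBZ gave -1.87. In the episomal vector they gave -1.32 and -0.20, 1 of them called lower, on either side of the -0.77 of HBZ. CDX4_Homeobox mutants at 3 other loci ran from -0.78 to 0.54 in the lentiviral vector, with 1 called lower and 1 higher, and from -1.44 to -0.34 in the episomal vector, with 1 called lower. CTCF_Zf mutants at 3 other loci ran from -3.67 to 1.63 in the lentiviral vector, and NRF1_NRF mutants at 4 from -3.31 to 0.61, with 1 called lower and 1 higher in both sets.

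The share of starts near the main start of the locus also fell at other loci with some of these motifs. For CDX4_Homeobox it fell at 3 of 3 other loci in both vectors. The log2 odds there ran from -10.57 to -1.94 in the lentiviral vector, where the HBE1 promoter gave -1.40. In the episomal vector they ran from -8.48 to -0.80, where the HBE1 promoter gave -0.15. The -1.94 was that of HBE1-HS1neg, where the difference between the vectors was -1.14, against -1.25 at the HBE1 promoter. For TATA-Box_TBP 1 of 2 other loci fell in both vectors. The lentiviral values were -10.03 and -0.04, around the -7.59 of HBZ, and the episomal values were -6.19 and -0.12, around its -2.44. For Gata1_Zf the share fell at 3 of 4 other loci in both vectors (lentiviral -2.24 to -0.22, where HBZ gave 0.00). For NFY_CCAAT it fell at 3 of 4 in the lentiviral and at 2 of 4 in the episomal vector, for NRF1_NRF at 2 of 4 and at 1 of 4. For CTCF_Zf it was called higher at 1 of 2 in the lentiviral and lower at 1 of 2 in the episomal vector. Whether the globin promoters differ from these loci was not tested.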

How the data were processed

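The authors deposited, per the file headers, the count of RNA reads and of DNA reads of each barcoded insert and, for each of 200 positions, the fraction of its RNA reads that start there. The submitters' processing notes name STAR 2.7.9a and hg38; further steps are not given in the sources used here. Each table stacks 4 blocks without a sample column. Replicate numbers rest on the order of names in each table's title. The 4 blocks of csRNA values were not used. Of the start fractions times the RNA count, 99.83% to 99.88% lay within 0.05 of a whole read.

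Mutants and loci were compared with limma 3.58.1 on log2((RNA + 1)/(DNA + 1)) per barcode, averaged over replicates, with at least 20 DNA reads per barcode, 2 barcodes per insert and a mean of 10 RNA reads. Start shares were compared as log2 odds with 0.5 read added, for barcodes with at least 50 reads. The window was centred on the position with most reads of the Ctrl, summed over both vectors, in these same data. Vectors were compared with edgeR 4.0.16 (TMM), with DESeq2 1.42.0 as an alternative, in R 4.3.3, python 3.11.15 and pandas 2.3.3. Adjusted p-values cover all mutants, loci or inserts of the table. On simulated counts, 89.9% of 2-fold losses were called in the episomal and 91% in the lentiviral design, and 2.29% and 2.14% of mutants without a change. The simulated spread between barcodes was the same for all inserts. It was smaller than that of some mutants here, such as the SD of 0.76 of episomal HBZ NFY_CCAAT, to which these rates do not apply. Values were given in every sample for each Ctrl and for each mutant past the threshold. The members and tests were chosen with earlier results of these data known. Tests of starts inside and outside the window, and of their vector difference, were added after the data were seen.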

Additional observations from a re-analysis of the deposited data

Results flagged for a closer look

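The effect of 4 mutants differed between the episomal and the lentiviral vector by a test of the difference itself (limma, lentiviral minus episomal change of the same barcodes). For RNA per DNA the difference was -1.86 for HBE1 NFY_CCAAT, -1.10 for HBZ TATA-Box_TBP and -0.84 for HBZ Gata1_Zf, each a larger loss in the lentiviral vector. For the log2 odds of a start within 2 bp of position 128 it was -5.14 for HBZ TATA-Box_TBP and -1.25 for HBE1 CDX4_Homeobox. EpiShort replicate 2 had fewer DNA reads than the other libraries, with a median of 662 per barcode against 3505 to 5864. Without replicate 2 of both vectors the differences in RNA per DNA were -2.01 for HBE1 NFY_CCAAT, -0.85 for HBZ TATA-Box_TBP and -0.49 for HBZ Gata1_Zf, the last no longer past the threshold (adjusted p = 0.0804, limma).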

How the results depend on the processing

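Of 537 single values under the alternatives, 490 kept their direction and their side of the threshold, 21 lost the call, 13 gained it and 13 turned in sign. The count of globin mutants called in the episomal vector, 3 of 5, ran from 1 to 4 when a barcode or a replicate was left out, and was 5 with the replicate block and 1 with RNA alone. The calls over all mutants, 25 of 48 in the main fit, moved too. They ran from 20 of 48 to 27 of 49 with a barcode or replicate left out. The block called 41 of 48 and RNA alone 13 of 48. With a window of 5 bp the episomal count of changed start shares rose from 1 to 2, and that of changed starts outside the window fell from 1 to 0. Over all 48 mutants these counts went from 20 to 22 and from 24 to 17. With the main start alone the lentiviral count of changed start shares fell from 5 to 3 of 7, where that of all mutants fell from 28 to 24 of 49. Left-out replicates turned signs: the episomal HBZ Gata1_Zf effect ran from -0.68 to 0.0105, the vector difference of HBZ NFY_CCAAT from -0.44 to 0.0804 (0.19 without barcode 4), the lentiviral start share of HBE1 NFY_CCAAT from -1.31 to 0.60 and the vector difference of HBQ CTCF_Zf from -0.18 to 0.0346 (0.59 with library totals). Pooled over barcodes, the start share of HBE1 NFY_CCAAT lay below that of the Ctrl in each lentiviral replicate. RNA alone gave 0.88 for HBQ CTCF_Zf and 0.29 for HBQ NRF1_NRF in the lentiviral vector. With the main start alone the start shares of the episomal HBE1 CDX4_Homeobox (0.0737) and the lentiviral HBE1 NFY_CCAAT mutant (0.11) turned. With 5 bp the lentiviral start share of HBZ Gata1_Zf (-0.0219) turned, and so did starts outside the window for HBZ NFY_CCAAT (0.60) and HBZ TATA-Box_TBP (1.31). Position 131, a second HBZ start, lies only in the 5 bp window, and RNA alone leaves out the DNA counts; the cause was otherwise not tested.

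Mutant and Ctrl share each library, so the replicate block is a paired fit of these. With only 2 libraries, limma shares its spread over all pairs. The p-values of the block therefore do not measure the spread between the libraries of a single pair alone. Between kinds of library the numbers are only shared: deviations of equal replicate numbers correlated at 0.297 for RNA and DNA of EpiShort, -0.0068 for those of LentiShort and -0.0896 for the RNA of both vectors. In the vector test the block called 419 of 499 inserts, against 416, and 10 of the 12 globin and GATA1 inserts in both. Fits on counts with DNA as an offset covered only mutants with all 8 barcodes measured, which leaves out HBQ. Depth limits the HBQ Ctrl most, with 132 and 24 episomal DNA reads.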
